A study of Mus musculus with 3 samples.

Results

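E proteins and Id proteins are the 2 arms of a helix-loop-helix network, and the 6 genes described here are Tcf3, Tcf4 and Tcf12, which encode the E proteins, and Id1, Id2 and Id3, which encode their inhibitors. They were taken by symbol, through GENCODE M21, from gene and transcript tables that hold 55418 genes with a symbol, of which 21992 are protein-coding. PolyA-selected RNA was sequenced from naive CD4 αβ T cells derived from the thymus, which are helper T cells that have not yet met their antigen. The cells came from 1 male mouse of the strain B6.SJL-Ptprca Pepcb/BoyJ, aged 5 months, with no treatment named in the labels. The 3 libraries are technical replicates of 1 biological replicate and form the study's 1 group. SDs below therefore measure technical spread alone (n = 3), and animals, cell types or conditions could not be compared.

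E proteins are basic helix-loop-helix transcription factors. Their helix-loop-helix part pairs 2 such proteins, and the basic part next to it touches DNA at short motifs called E-boxes. Id proteins carry the helix-loop-helix part without the basic part, so an E protein paired with an Id protein cannot bind DNA. In the thymus E proteins drive the early T cell program and hold developing cells at checkpoints, and signals from the antigen receptor raise Id genes, which lowers E protein activity. Each E protein gene gives more than 1 protein. Tcf3 (E2A) makes E12 and E47, which differ in the exon that encodes the basic helix-loop-helix part. Tcf12 (HEB) and Tcf4 (E2-2) make long proteins, with an additional activation domain at the start, and short proteins, which begin at a start codon further downstream.

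Library 2 stood apart from the other two. Expected counts, which are the authors' estimated reads per gene, summed to 14837442, 18207118 and 17505621 in libraries 1, 2 and 3. Genes of ribosomal proteins took 9.74% of all TPM (a level corrected for transcript length and scaled to a common total per library) in library 2, against 6.86% and 6.57% in libraries 1 and 3, and ribosomal RNA entries took 1.47% against 0.575% and 0.635%. All 8 markers of naive CD4 T cells were detected, that is, at 1 TPM or more in every library. Of 8 markers of double-positive thymocytes 2 were detected, Cd8b1 at 17.0 TPM and Dntt at 7.83 TPM, with a summed level of 25.2 to 27.3 TPM for the list, and the recombinase genes Rag1 and Rag2 were each at 0.0167 TPM. Regulatory T cell markers were present, with 5 of 5 detected, a summed level of 320 to 354 TPM, of which Tnfrsf18 alone made up 252 TPM on average, and Foxp3 at 18.9 TPM. The part of such cells in the values below was not tested, and in bulk RNA fewer cells of a type and less RNA per cell cannot be told apart.

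The sequences below show where the Tcf3 and Tcf12 proteins diverge, since the transcript forms given later are separated by these stretches. They were read from the GENCODE M21 transcripts (GRCm38/mm10) and are written 5′ to 3′ on the coding strand. The pair of Tcf3 exons lies on the minus strand at chr10:80412827-80413062 (E12, 236 bases) and chr10:80410398-80410624 (E47, 227 bases), both coding. Capitals mark bases that differ, or have no partner, when the exons are aligned. Over 227 aligned positions 175 bases, or 77.1%, were identical.

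Tcf3 E12 exon: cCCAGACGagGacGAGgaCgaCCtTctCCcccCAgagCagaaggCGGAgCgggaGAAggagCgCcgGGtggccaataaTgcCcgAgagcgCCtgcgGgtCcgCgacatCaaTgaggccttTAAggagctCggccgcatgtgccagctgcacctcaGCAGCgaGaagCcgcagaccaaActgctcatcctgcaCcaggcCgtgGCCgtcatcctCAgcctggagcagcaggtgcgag

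Tcf3 E47 exon: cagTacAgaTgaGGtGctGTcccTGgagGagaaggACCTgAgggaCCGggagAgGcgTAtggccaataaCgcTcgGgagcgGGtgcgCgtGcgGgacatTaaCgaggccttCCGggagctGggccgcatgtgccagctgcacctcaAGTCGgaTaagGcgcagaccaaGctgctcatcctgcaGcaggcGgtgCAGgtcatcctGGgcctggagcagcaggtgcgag

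Each of the 10 complete coding transcripts of Tcf3 holds 1 of these exons and not the other. In the direction of transcription the E12 exon comes first. The lower-case runs are the stretches that the exons share.

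The Tcf12 stretches are the first coding bases of the long form, at chr9:72110738-72110812 (minus strand, 75 bases, 25 codons), and of the short form, at chr9:71895930-71895998 (minus strand, 69 bases, 23 codons). Each is the part of the coding sequence that lies in its own first coding exon, and capitals mark the start codon.

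Tcf12 long form, first coding bases: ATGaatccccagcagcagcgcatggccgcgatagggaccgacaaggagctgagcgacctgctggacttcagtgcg

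Tcf12 short form, first coding bases: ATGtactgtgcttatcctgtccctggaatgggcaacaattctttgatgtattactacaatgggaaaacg

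The Tcf12 start codons lie 214814 bases apart in the genome. The short form therefore lacks the early coding exons and begins with codons of its own.

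Among the E proteins Tcf3 was the highest. Tcf3 (ENSMUSG00000020167.14, chr10:80409514-80433647, minus strand) stood at 90.25, 75.54 and 88.37 TPM in libraries 1, 2 and 3. Its mean was 84.7 ± 8.01 TPM, from 6656 expected counts, and 89.8% of protein-coding genes were lower. Library 2 was the lowest of the 3.

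Tcf12 followed. Tcf12 (ENSMUSG00000032228.16, chr9:71842688-72111871, minus strand) stood at 55.72, 54.36 and 58.34 TPM, a mean of 56.1 ± 2.02 TPM from 5049.76 expected counts, with 85.1% of protein-coding genes below it. The 3 libraries were close together. Along Tcf12 the annotation places 11 other entries, of which 4 lie on the opposite strand. None of them exceeded a mean of 2.54 TPM. Whether the authors' counting used strand is not given in the sources used here.

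Tcf4 was the lowest E protein gene. Tcf4 (ENSMUSG00000053477.17, chr18:69343356-69689079, plus strand) stood at 5.96, 5.89 and 5.80 TPM, a mean of 5.88 ± 0.0802 TPM, from 85, 118 and 107 expected counts. The close agreement between libraries does not carry over to the estimate itself. The authors' posterior mean, a second deposited estimate, gave 13.0, 11.2 and 12.1 TPM, and the intervals deposited with it (10.2 to 15.9, 8.81 to 13.7 and 9.54 to 14.7) do not hold the first estimate in any library. The same was true of Tcf3 and Id2, whose posterior means were lower than the first estimate, at 74.7 and 79.9 TPM, while for Tcf12, Id1 and Id3 the intervals held it in every library. GENCODE M21 lists 62 transcripts of Tcf4, more than of the other 5 genes, and they share 310 expected counts. The level of Tcf4 thus depends on which estimate is read, by about 2-fold. Tcf4 is also the E protein gene of plasmacytoid dendritic cells, and of 8 markers of those cells 1 was detected. That marker was Pacsin1, at 49.97 TPM, while Siglech was at 0.0367 TPM and Klk1 and Cox6a2 were at 0 in every library.

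Among the inhibitors Id2 was the highest. Id2 (ENSMUSG00000020644.9, chr12:25093799-25097140, minus strand) stood at 87.36, 92.19 and 96.99 TPM, a mean of 92.2 ± 4.82 TPM from 3137 expected counts, with 90.7% of protein-coding genes below it. Id2 is the inhibitor best known from innate lymphoid, natural killer and effector T cells. Of 8 markers of natural killer and innate lymphoid cells 4 were detected, namely Gata3 (33.4 TPM), Rora (25.2 TPM), Klrd1 (12.1 TPM) and Eomes (2.49 TPM). Gata3 is also a factor of CD4 T cells. The receptor gene Ncr1, which defines natural killer cells, was at 0.0267 TPM. Of 8 memory or effector T cell markers 3 were detected, with Cd44 at 19.0 TPM, and the summed level of that list was 28.7 to 29.5 TPM. The part of these cells in the Id2 level was not tested.

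Id3, the inhibitor gene best known as a target of antigen receptor signals in thymocytes, was lower. Id3 (ENSMUSG00000007872.3, chr4:136143497-136145755, plus strand) stood at 22.68, 18.72 and 20.0 TPM, a mean of 20.5 ± 2.02 TPM from 627 expected counts, and 72.6% of protein-coding genes lay below it. All libraries were under the lowest library of Id2.

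Id1 was at the limit of detection. Id1 (ENSMUSG00000042745.9, chr2:152736251-152737410, plus strand) stood at 0.66, 0.10 and 0.33 TPM, from 5, 1 and 3 expected counts. No library was at 0 counts. For scale, a count of 0 would allow up to 3 counts, which for Id1 correspond to 0.395, 0.304 and 0.332 TPM. Library 1 lay above that limit, library 3 at it and library 2 below it. Id4, the remaining Id gene, was at 0, 0.07 and 0.08 TPM, from 6 counts in all. Such limits cover counting error only, since the reads carry no molecular identifiers.

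**Figure D1:**
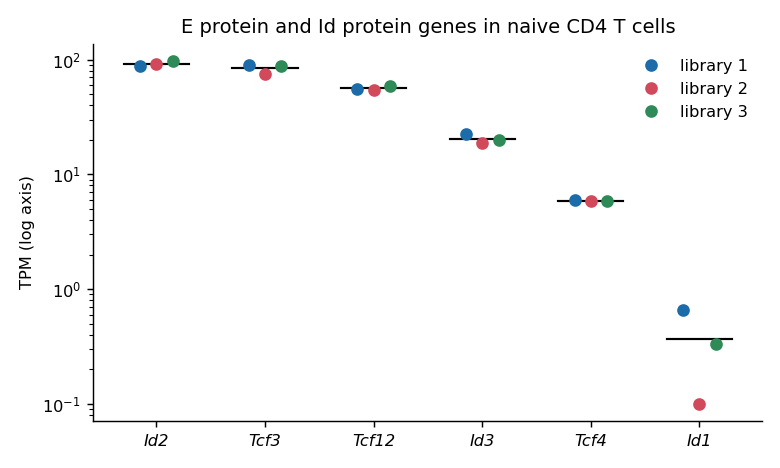
TPM (log axis) of the 6 genes in libraries 1, 2 and 3, as points, with the mean as a line, in descending order of the mean. Id2 and Tcf3 overlap near 90 TPM, and each following gene lies below the one before it in every library, down to Id1 at 0.363 TPM.

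By mean TPM the 6 genes ran from Id2 through Tcf3, Tcf12, Id3 and Tcf4 to Id1. Id2 and Tcf3 could not be ordered: the lowest library of Id2 (87.36 TPM) lay under the highest of Tcf3 (90.25 TPM), and the ratio of their means was 1.09. The other 4 neighbours did not overlap in any library. Tcf3 exceeded Tcf12 by 1.51-fold, Tcf12 exceeded Id3 by 2.74-fold, and Id3 exceeded Tcf4 by 3.48-fold. Tcf4 lay above Id1 in every library, by a size that 9 counts of Id1 leave loose. With the posterior mean the step from Id3 (18.4 TPM) to Tcf4 (12.1 TPM) was smaller. Where lengths were not corrected, in the expected counts and in the older counts alike, Id2 came after Tcf3 and Tcf12 and the rest of the order was the same.

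Whether technical libraries differed by more than counting noise was tested for each gene by a chi-square test of homogeneity of the scaled counts, with Benjamini-Hochberg adjustment over the 13079 genes that averaged 10 counts or more. It called 39.9% of all genes. Of the 5 members with enough counts it called 2, a share close to that background. Tcf3 differed between libraries by 1.13-fold from highest to lowest (chi-square test, adjusted p = 0.00022), lowest in library 2. Id2 differed by 1.16-fold (chi-square test, adjusted p = 0.011), lowest in library 1. Without library 2 the test called 14.6% of all genes and neither of these, at adjusted p = 0.89 for Tcf3 and 0.082 for Id2. Without library 1 it called 36.7% of all genes, and Id2 was at adjusted p = 0.54. Tcf12, Tcf4 and Id3 were not called, at adjusted p = 0.99, 0.68 and 0.67, and Id1 had too few counts to test. For Tcf12 the scaled counts were 1683, 1687 and 1680.

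Summed over each family, E protein RNA exceeded Id RNA by a modest margin. The 3 E protein genes summed to 151.93, 135.79 and 152.51 TPM (147 ± 9.49), and the 3 Id genes to 110.7, 111.01 and 117.32 TPM (113 ± 3.74). The ratio of the sums was 1.37, 1.22 and 1.30, a mean of 1.30 ± 0.0746, above 1 in every library. On the log2 scale, with 0.1 TPM added to each gene, it was 0.37 ± 0.08, and without library 2 it was 0.42. Each sum rested mostly on its leading genes. Tcf3 held 57.7% ± 1.90 of the E protein sum, Tcf12 38.3% ± 1.68 and Tcf4 4.02% ± 0.281. Id2 held 81.5% ± 2.28 of the Id sum, Id3 18.1% ± 2.04 and Id1 0.323% ± 0.256.

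The margin depends on length. These genes differ in the length of their RNA, with effective lengths near 2660 bases for Tcf3 and 1128 bases for Id2 in library 1, and TPM corrects for it. Without that correction the log2 ratio of E to Id was 1.68 from the expected counts. Counting protein-coding transcripts only, an alternative added after seeing the data, it fell to 0.11. As means over the libraries, all of these were above 0. In library 2, however, the protein-coding transcripts of the Id genes summed higher than those of the E protein genes.

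Gene by gene, in TPM, Tcf3 and Id2 were the most even pair. The log2 ratio of Tcf3 to Id2 was 0.05, -0.29 and -0.13 in libraries 1, 2 and 3, with Tcf3 higher in 1 of 3 libraries. Its mean of -0.12 ± 0.17 was smaller than its spread. Pooled over libraries, length-scaled counts gave a ratio of 0.910 (exact Clopper-Pearson 95% interval 0.872 to 0.950), an interval for counting error only. Where lengths were not corrected Tcf3 was the higher, at 1.10 from the expected counts and 2.05 from the counts on the older annotation, and Tcf3 and Id2 were no longer the most even pair. Tcf12 lay below Id2 in every library, at -0.71 ± 0.06 on the log2 scale (pooled ratio 0.607, interval 0.580 to 0.635). That direction turned where lengths were not corrected, to 0.70 from the expected counts and to 1.08 from the older counts. Over protein-coding transcripts only, it was -1.47. Tcf4 lay far below Id2, at -3.95 ± 0.09 (pooled ratio 0.0636, interval 0.0564 to 0.0715), and at -2.71 with the posterior mean and -2.35 in the older counts.

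Against Id3 the E protein genes divided. Tcf3 was higher by 2.04 ± 0.08 on the log2 scale (pooled ratio 4.15, interval 3.82 to 4.51), and Tcf12 by 1.46 ± 0.14 (pooled ratio 2.76, interval 2.54 to 3.01). Tcf4 was lower, at -1.78 ± 0.13 (pooled ratio 0.290, interval 0.252 to 0.332), and at -0.60 with the posterior mean, -1.02 from the expected counts and -0.22 in the older counts. All 3 libraries gave the same direction for each of these pairs.

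Against Id1 all 3 E protein genes were higher in every library, but the sizes are loose because Id1 had 9 counts. The pooled ratios were 248 for Tcf3 (exact interval 130 to 542), 165 for Tcf12 (87.0 to 361) and 17.3 for Tcf4 (9.0 to 38.2). Their log2 means were 7.71 ± 0.84, 7.12 ± 0.95 and 3.89 ± 0.96, and for Tcf4 the posterior mean gave 4.52.

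**Figure D2:**
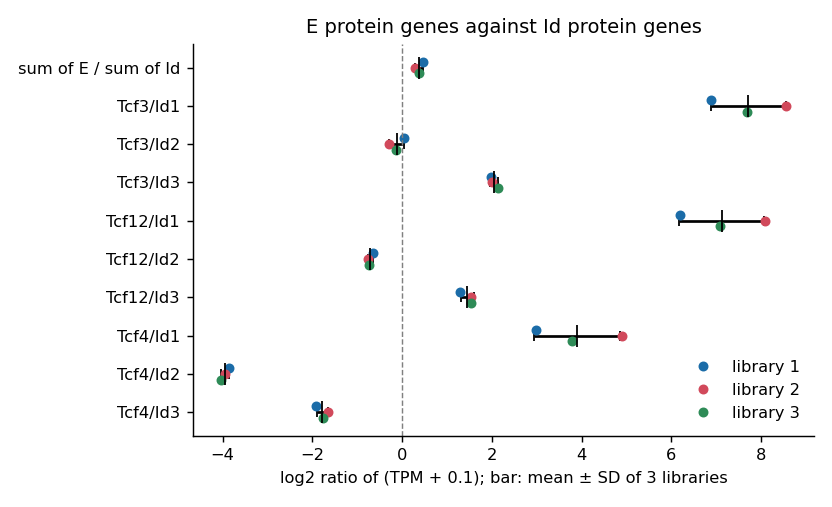
Log2 ratio of each E protein gene to each Id gene, and of the family sums (top), in TPM with 0.1 added to each gene. Points are libraries 1, 2 and 3, and bars are the mean ± SD of 3 libraries. Tcf3/Id2 straddles 0, the pairs with Id1 have the widest spread, and the sums lie just above 0.

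Transcript forms were taken from the annotated start codons. A coding transcript of an E protein gene was called long where its start codon is that of the transcript with the longest coding sequence, or lies upstream of it, and short where it lies downstream. Transcripts marked as retained intron, processed or nonsense-mediated decay were kept apart as noncoding. Values are percent of the gene's TPM.

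Tcf3 was almost wholly long, in an annotation that holds no complete short model of it. Long transcripts held 93.5%, 87.7% and 92.7% of Tcf3 in libraries 1, 2 and 3, a mean of 91.3% ± 3.11. Its 1 annotated short transcript, Tcf3-213, was listed at 0 in every library. Tcf3-213 is an incomplete model with 199 coding bases that holds neither of the exons printed above. Noncoding transcripts held the remaining 8.71% ± 3.11, with Tcf3-212 the highest of them at 5.30, 6.67 and 5.15 TPM. Library 2 had the lowest long share. The 10 complete coding models with either exon differ little in coding length, from 1935 to 1959 bases, so the split of interest within Tcf3 is by exon.

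E47 led E12. Transcripts with the E47 exon, printed above, summed to 57.55, 45.62 and 61.55 TPM, or 63.8%, 60.4% and 69.7% of the gene (mean 64.6% ± 4.69). Those with the E12 exon summed to 26.79, 20.66 and 20.33 TPM, or 29.7%, 27.3% and 23.0% (mean 26.7% ± 3.39). The groups of values did not overlap. The ratio of E47 to E12 was 2.15, 2.21 and 3.03, a mean of 2.46 ± 0.491, or 1.28 ± 0.28 on the log2 scale, and it was highest in library 3. Among coding transcripts only, the shares were 70.7% and 29.3%.

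The exon sums were steadier than the single transcripts behind them. Tcf3-209, which holds the E47 exon, stood at 25.04, 14.53 and 22.65 TPM. Tcf3-208, also with the E47 exon, stood at 14.19, 27.5 and 7.02 TPM, and the highest E12 transcript, Tcf3-210, at 16.37, 20.66 and 6.46 TPM. The order of 209 and 208 thus turned in library 2. Over the 10 Tcf3 transcripts with a mean of at least 1 TPM the coefficient of variation between libraries ran from 14.7% to 173%. The median was 77.1%, against 15.1% for the E47 sum and 16.1% for the E12 sum. Those 10 include the 2 noncoding transcripts, which hold neither exon and enter neither sum, and the 14.7% is that of noncoding Tcf3-212. Among transcripts within the sums Tcf3-209 varied least for its level, with an SD of 5.51 TPM on a mean of 20.7 TPM. The coding transcripts overlap over most of their length, so their shares are estimates that draw on the same reads.

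**Figure D3:**
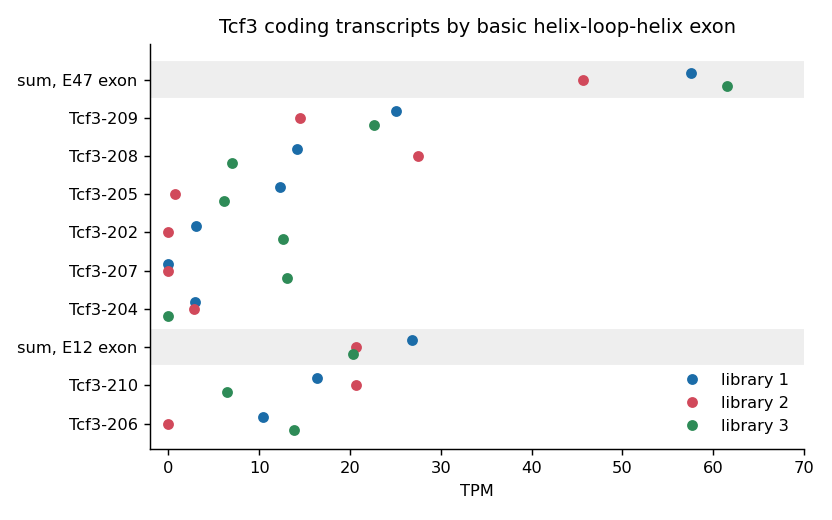
TPM of Tcf3 coding transcripts in libraries 1, 2 and 3, grouped by the basic helix-loop-helix exon they hold, with the sum of each group in grey bands. The sums stay apart, at 45.6 TPM or more for E47 and 26.8 TPM or less for E12, while single transcripts such as Tcf3-208 and Tcf3-206 move widely between libraries.

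The 3 proteins known to regulate this choice of exon were abundant as RNA. Hnrnpf stood at 1284 ± 157 TPM, Ptbp1 at 470 ± 54.8 TPM and Hnrnph1 at 234 ± 34.1 TPM. All encode RNA-binding proteins that act on splicing. With 1 group their levels cannot be set against the exon shares.

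Tcf12 forms differed between libraries far more than the Tcf12 total. Long transcripts held 64.2%, 30.5% and 60.6% of Tcf12, a mean of 51.7% ± 18.5, and 62.4% without library 2. Noncoding transcripts held 29.8%, 60.4% and 26.3% (mean 38.8% ± 18.7), and 28.1% without library 2. Library 2 was the one apart in both. By the posterior mean, long transcripts held 44.5% and noncoding ones 44.3% on average, so the lead of the long form depends on the estimate. Within the noncoding share, nonsense-mediated decay models took 13.4%, 36.4% and 11.7%, while retained-intron models took 16.5%, 20.5% and 14.6%. In library 2, 1 nonsense-mediated decay model, Tcf12-220, held 307.57 of the 420.56 expected counts of such models. Tcf12-220 was listed at 0, 6.7 and 0 TPM in libraries 1, 2 and 3. By the posterior mean it stood at 1.14, 6.21 and 2.73 TPM, so its absence from libraries 1 and 3 depends on the estimate. How far the assignment of reads among Tcf12 models shaped these shares was not tested. Library 2 is also the library with the higher ribosomal share given above, and the part of that in the Tcf12 forms was not tested.

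The long share rested on few models. Tcf12-201, a complete long model with 20 exons and 2046 coding bases, was the highest at 24.69, 11.95 and 23.49 TPM. Tcf12-203, an incomplete model that shares the long start codon, stood at 9.13, 0.32 and 10.67 TPM. Complete long models alone held 46.7%, 24.8% and 42.3%. The highest noncoding transcript, Tcf12-211, which is annotated as a target of nonsense-mediated decay, stood at 4.36, 8.78 and 6.82 TPM. Tcf12-209, the highest coding model with no annotated start codon, stood at 1.68, 1.32 and 2.76 TPM.

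By its start codon, the short form of Tcf12 held the smaller share. Tcf12-207, with 14 exons and 1608 coding bases, begins with the short-form stretch printed above and stood at 1.66, 3.67 and 2.77 TPM, or 2.98%, 6.75% and 4.75% of the gene (mean 4.83% ± 1.89). It rested on 60.63, 174.33 and 120.33 expected counts, and it was the only one of 2 annotated short transcripts above 0. The lowest long share (30.5%) was well above the highest short share (6.75%). Among coding transcripts only, long models held 83.5% and the short model 9.24%. Where models were split by length instead, with long meaning at least 80% of the longest coding sequence, short models, incomplete ones included, held 18.6% and long models 37.9%. Coding transcripts with a 72-base exon that lies downstream of both start codons held 7.25% ± 2.12 of Tcf12, or 13.7% among coding transcripts only. The coding transcripts without it include incomplete models, so this share does not measure how often the exon is included.

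Tcf4 forms could not be settled. The first estimate gave long transcripts 55.6%, 41.8% and 53.2% of Tcf4 (mean 50.2% ± 7.36), short transcripts 27.3%, 27.7% and 20.4% (25.1% ± 4.12) and noncoding transcripts 24.7% ± 6.85. The posterior mean turned the order, with 15.5% long and 51.9% short. Of the 62 annotated transcripts 10 are long and 36 short by the rule used here. Tcf4-205, a long model, was the highest, at 1.40, 0.98 and 2.03 TPM. Tcf4-259, an incomplete long model, stood at 0, 0.90 and 0.73 TPM, the highest short model, Tcf4-210, at 0.33, 0.45 and 0.58 TPM, and the highest noncoding transcript, Tcf4-211, at 0.38, 0.84 and 0 TPM. The balance of long and short in Tcf4 is therefore not given here as a result.

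**Figure D4:**
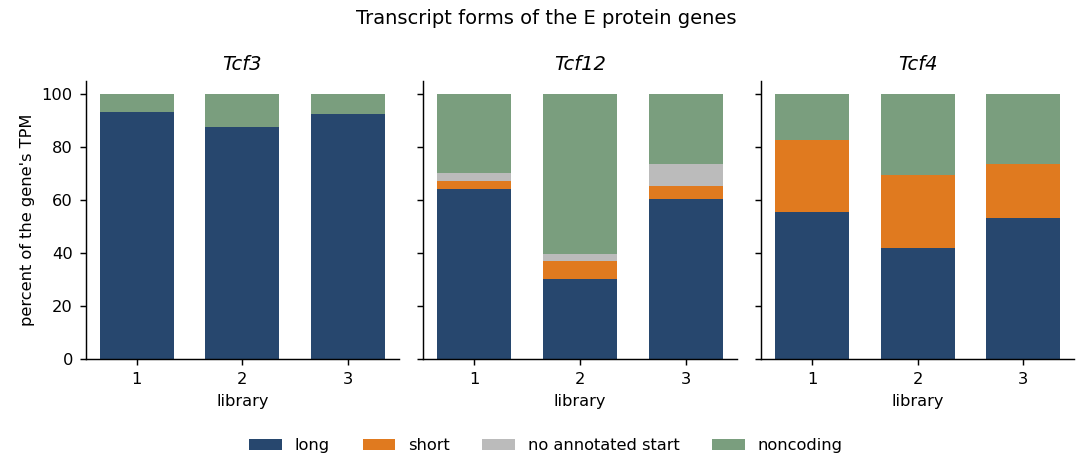
Percent of each E protein gene's TPM in long, short, unclassed (no annotated start) and noncoding transcripts, as stacked bars for libraries 1, 2 and 3. Tcf3 is long in 87.7% or more of every bar, the noncoding part of Tcf12 reaches 60.4% in library 2, and Tcf4 is shown by the first estimate, which the posterior mean turns.

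The genes around the network were described by lists of known partners, targets and regulators, 106 genes besides the 6 members, of which 54 were detected. For scale, 9813 of all 21992 protein-coding genes, or 44.6%, were detected, and their median level was 0.360 TPM.

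Most of the other bHLH genes listed, many of which encode partners of E proteins in other tissues, were absent or near 0. Of 25 measured, 1 was detected and 13 had no count in any library, and the median was 0 TPM. The detected gene was Bhlhe40, a repressor induced by activation, at 4.18 ± 0.395 TPM, followed by Hey1 at 0.787 TPM and Bhlhe41 at 0.517 TPM. No library thus held another bHLH gene of this list at the level of Tcf12 or Tcf3.

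Cofactors of E proteins were mostly present, with 11 of 15 detected and a median of 28.7 TPM. The highest were the corepressor Ncor1 at 420 ± 63.6 TPM, the bridging factor Ldb1 at 269 ± 13.1 TPM and its partner Ssbp3 at 67.3 ± 2.09 TPM. Lmo1 and Lmo2, whose proteins bridge Ldb1 to bHLH factors in blood progenitors and leukaemia, were at 0 and 0.243 TPM. Lmo4, of the same family, was detected at 17.3 ± 1.02 TPM.

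Of 20 genes known as E protein targets in thymocytes 13 were detected, with a median of 9.18 TPM. The highest were the kinase gene Lck at 1182 ± 166 TPM, Cd3e at 761 ± 28.8 TPM and Cd4 at 444 ± 6.42 TPM. Among those not detected were Ptcra, the pre-T cell receptor gene, at 0.0567 TPM, and Rag1. Dntt, which adds bases at receptor gene joints, stood at 7.83 ± 0.890 TPM.

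Of 10 E protein targets of the B lineage 3 were detected, with a median of 0.245 TPM. They were Foxo1, which T cells also use, at 103 ± 3.89 TPM, the coactivator gene Pou2af1 at 4.69, 6.35 and 6.52 TPM and the B cell receptor component Cd79a at 2.06 ± 0.632 TPM.

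Genes of the signals that raise Id genes were present to different extents. Of 8 genes of the ERK and EGR route, which links the antigen receptor to Id3, 7 were detected, with a median of 28.5 TPM. Ets1 stood at 1633 ± 165 TPM and Elk4, which encodes another factor of the ETS family, at 98.7 ± 12.9 TPM. The exception was Egr3, at 1.08, 1.93 and 0.67 TPM.

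Of 15 genes of the BMP and TGF-β route 9 were detected, with a median of 23.8 TPM. Tgfbr2, a TGF-β receptor, led at 357 ± 14.2 TPM, followed by the shared signal carrier Smad4 at 208 ± 19.0 TPM and the inhibitor Smad7 at 120 ± 30.2 TPM. The BMP receptor genes were low. Bmpr1a stood at 0.553 TPM, Bmpr2 at 0.190 TPM, Acvr1 at 0.187 TPM and Bmpr1b at 0. These 4 were named after their values were seen, because BMP signals are known to raise Id1. Among the signal carriers of the list, Smad1 and Smad5 were detected, at 37.1 and 34.5 TPM, while Smad9 was at 0. The part of these levels in the level of Id1 was not tested.

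Zinc finger repressors that bind E-boxes came down to 1 gene of note, Zeb1, at 142 ± 6.34 TPM. Of 5 measured 2 were detected, the other being Snai3 at 1.52 ± 0.363 TPM. Snai1 stood at 0.123 TPM, Zeb2 at 0.117 TPM and Snai2 at 0.

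All 6 genes listed for the turnover of E and Id proteins were detected, with a median of 39.3 TPM. The ubiquitin ligase gene Stub1 led at 141 ± 18.7 TPM, followed by Usp1, whose product removes ubiquitin from Id proteins, at 47.4 ± 8.54 TPM and Fzr1, an activator of the anaphase-promoting complex, at 39.4 ± 6.13 TPM.

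**Figure D5:**
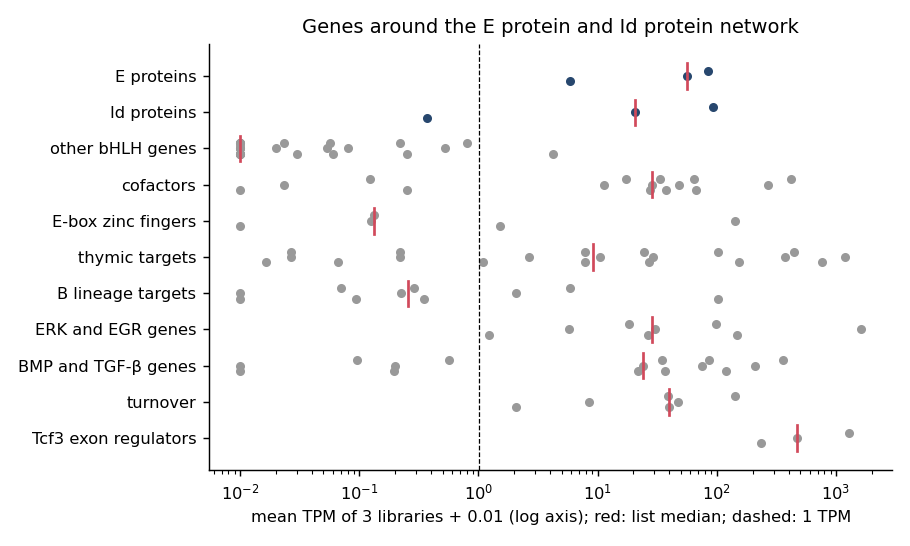
Mean TPM of 3 libraries, plus 0.01, on a log axis, for each gene of the lists (grey) and the 6 members (blue), with list medians in red and the detection level of 1 TPM dashed. Most other bHLH genes sit at or near 0, while the cofactor median is 28.7 TPM and the Tcf3 exon regulators reach 1284 TPM.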

How the data were processed

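PolyA-selected RNA of 1 mouse was sequenced in 3 technical libraries, with RNA sheared to a size range of 100 to 300 per the labels. The assembly was mm10 per the labels, and the gene identifiers are those of GENCODE M21. The aligner, the quantifier, their versions and the use of strand were not given in the sources used here. The members and all gene lists were chosen with earlier results of these data known.

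The authors deposited expected counts, which need not be whole, and TPM, each as a first estimate and a posterior mean with interval bounds whose level was not given in the sources used here. Per the file headers, isoform percent is each transcript's percent of its gene's TPM. The authors also deposited whole-number counts on an older annotation (GENCODE M4, totals 5160325, 5816158 and 5703629), used here for alternatives only. Entries that name no gene, which held 0.247%, 0.200% and 0.325% of expected counts, entered neither library sizes nor tests.

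Detection meant at least 1 TPM in every library. Neighbouring genes were called apart where no library overlapped. Pair ratios used 0.1 TPM added to each gene, and their pooled ratios are of counts scaled to length, with exact Clopper-Pearson 95% intervals that cover counting error only. Differences between libraries were tested on expected counts rounded to whole numbers by a chi-square test, with TMM scaling (edgeR 4.0.16, R 4.3.3) and Benjamini-Hochberg adjustment at 0.05 (scipy 1.17.1). The test was tried on simulated Poisson counts, which carry only the counting noise it assumes. That does not cover error in assigning reads to genes. With 1 group no test between conditions was made, and p-values measure only technical spread.

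The text names all 6 members, the 3 highest genes of each list and any undetected ones where fewer than 4 were undetected, the 2 protein-coding genes nearest each member in log2(TPM + 1), and the 3 highest transcripts of each E protein gene with the highest of each form. Other genes are named as cell type markers or for their role in the pathway, after their values were seen. A few genes chosen by this rule are not reported here; list totals include them. Alternatives were the posterior mean, the older counts, expected counts without length correction, TPM rescaled over protein-coding genes, pseudocounts of 1 and 0.01, protein-coding transcripts only, a form rule at 80% of the longest coding sequence, library totals and DESeq2 1.42.0 size factors, minimum counts of 1 and 50, detection at 0.5 and 5 TPM, and each library left out.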

Additional observations from a re-analysis of the deposited data

How the results depend on the processing

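Of the values that answer a question of the study, 16 moved under an alternative and 59 did not. Not moving meant that a level, ratio or share stayed within 1 SD of the libraries and a count of genes within 1.5 times. With 3 libraries, leaving 1 out cannot shift a mean by 1 SD, so levels, ratios and shares could not move there. Rescaling TPM multiplies all genes of a library alike, so it hardly changes a ratio. Both kinds are in the tallies of values that did not move, which therefore overstate how stable the results are. Counts of genes have no SD. Member levels entered this tally only as the number of neighbours called apart, 4 or 5, so a changed order did not count. Among values for single genes and pairs, 51 moved, 2 reversed, 3 lost their call and 117 did not move. The levels of Tcf3, Tcf12, Tcf4, Id2 and Id3 each moved with the posterior mean and with TPM rescaled over protein-coding genes. That of Id1 did not move. The log2 ratio of E to Id genes, 0.37, was 0.50 with the posterior mean, 1.68 from expected counts without length correction, 2.38 from the older counts and 0.11 over protein-coding transcripts only, and 0.33 to 0.42 with 1 library left out. Tcf12 against Id2 turned to 0.70 and 1.08 in the 2 count alternatives without length correction, where Tcf3 against Id2 was 1.10 and 2.05; correcting no length raises the longer gene by construction. Over protein-coding transcripts only, Tcf3 was 100% long, in an annotation with no complete short model, and 70.7% held the E47 exon. Tcf12 was 83.5% long and 9.24% short there, and Tcf4 66.5% long and 33.5% short. With long defined by 80% of the longest coding sequence, short forms held 18.6% of Tcf12 and 40.5% of Tcf4, and long forms 34.9% of Tcf4. With the posterior mean Tcf4 was 15.5% long and 51.9% short; the cause was not tested. With 1 library left out, Tcf12 was 45.5% to 62.4% long. With the posterior mean Tcf12 was 44.5% long and 44.3% noncoding, which counted as not moving because the SDs were wide. Genes that differed between libraries numbered 5221, and 1881 to 4866 with 1 library left out, the fewest without library 2. Among members, Tcf3 and Id2 lost their calls as given in the results, and no other of the 5 tested changed side. No paired analysis was possible because there is 1 group. Depth was low for Id1, with 9 counts, and for Tcf4, with 310; its part in the Tcf4 forms was not tested.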

Other observations

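The Id genes also had transcript forms, which the labels and the question of long and short E proteins do not cover. Id2-201, with 3 exons and 402 coding bases, held 70.2%, 74.8% and 70.4% of Id2 in libraries 1, 2 and 3, and Id2-203, a single-exon model with 465 coding bases, held 29.8%, 25.3% and 29.6%. For Id3, Id3-201 held 64.1%, 72.02% and 68.0%, and Id3-203, a retained-intron model, held the larger part of what was left, at 28.6%, 28.0% and 22.9%. Id1-201 held all of the few Id1 reads in the first estimate.

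The protein-coding genes nearest each member in level over the 3 libraries, by the distance of log2(TPM + 1), were Abhd8 (84.8 TPM) and Fbxo38 (85.0 TPM) for Tcf3, and Pspc1 and Dalrd3 (56.4 TPM each) for Tcf12. For Tcf4 they were Marf1 (5.85 TPM) and Rad54l2 (5.87 TPM). For Id2 Etf1 (90.5 TPM) is given, for Id3 Usp24 (20.5 TPM) and Dzip1 (20.3 TPM), and for Id1 Sema7a (0.367 TPM) and Pdia2 (0.417 TPM). This is likeness of level among 3 libraries of 1 sample and carries nothing on function.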
